A study of Arabidopsis thaliana with 12 samples.

Results

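The chlorophyll biosynthesis genes described here are 10 of the 27371 genes in the deposited expression tables. They were chosen by name and not by a cutoff on measured values, but with earlier results of these data known. They comprise *HEMA1* (AT1G58290), *GUN4* (AT3G59400), *CHLH* (AT5G13630), *CHLI1* (AT4G18480), *CHLD* (AT1G08520), *CRD1* (AT3G56940, also called CHL27), *PORA* (AT5G54190), *PORB* (AT4G27440), *PORC* (AT1G03630) and *CAO* (AT1G44446). Their mRNA was measured by RNA-seq in whole Arabidopsis seedlings of age 14 days, grown under long days on sugar-free medium. There were 4 groups of 3 libraries: WT (Col-0) and *linc1-1*, each either mock treated or harvested 24 hours after spraying with *Pst hrcC*-. The *linc1-1* line is a single T-DNA insertion allele of *LINC1*, a gene for a lamin-like nuclear protein, and no complemented line is among the samples. *Pst hrcC*- is a *Pseudomonas syringae* pv. *tomato* DC3000 strain that lacks type III secretion, so the plant meets the bacterial surface patterns without injected effectors. Levels are in FPKM, fragments per kilobase of transcript scaled by the mapped fragments of the library, so levels of different genes can be set side by side per length.

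Chlorophyll is built in the plastid from glutamate through a chain of tetrapyrroles that also feeds heme, siroheme and the phytochrome chromophore. HEMA1 is a glutamyl-tRNA reductase, the rate-limiting enzyme at the entry of the chain. At the branch point, magnesium chelatase, made of the subunits CHLH, CHLI and CHLD and stimulated by GUN4, sends protoporphyrin toward chlorophyll. CRD1 is a subunit of the cyclase that closes the isocyclic ring, the POR enzymes reduce protochlorophyllide in a step that needs light, and CAO turns chlorophyll(ide) a into the b form. Several of these genes are known targets of the GLK factors, of phytochrome-interacting factors and of the circadian clock.

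The bases just before the annotated starts are shown for the 3 *POR* genes, whose levels parted from each other in one library, and for *CRD1* and *CAO*, which carry the same motif at the same distance from the start. Each line gives the 250 bases upstream of the gene, 5′ to 3′ on the strand of the gene, from RefSeq TAIR10.1. Capitals mark CACGTG (the G-box, bound by phytochrome-interacting factors and HY5), CCAATC (an element bound by GLK factors), AAAATATCT (the evening element), AAAAATCT (a CCA1-binding site) and GATAAG (the I-box), searched on both strands. The windows lie at chr5:21992815-21993064 on the minus strand (*PORA*), chr4:13725296-13725545 on the plus strand (*PORB*), chr1:907273-907522 on the plus strand (*PORC*), chr3:21076255-21076504 on the plus strand (*CRD1*) and chr1:16851272-16851521 on the minus strand (*CAO*).
PORA: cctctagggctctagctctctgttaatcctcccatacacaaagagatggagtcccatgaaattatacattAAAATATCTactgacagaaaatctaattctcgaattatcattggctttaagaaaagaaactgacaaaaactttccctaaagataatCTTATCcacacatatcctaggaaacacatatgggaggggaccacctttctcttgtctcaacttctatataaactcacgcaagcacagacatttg
PORB: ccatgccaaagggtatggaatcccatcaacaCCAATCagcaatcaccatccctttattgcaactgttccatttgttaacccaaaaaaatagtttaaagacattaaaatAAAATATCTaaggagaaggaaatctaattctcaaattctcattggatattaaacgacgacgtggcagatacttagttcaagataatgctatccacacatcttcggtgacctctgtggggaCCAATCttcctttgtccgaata
PORC: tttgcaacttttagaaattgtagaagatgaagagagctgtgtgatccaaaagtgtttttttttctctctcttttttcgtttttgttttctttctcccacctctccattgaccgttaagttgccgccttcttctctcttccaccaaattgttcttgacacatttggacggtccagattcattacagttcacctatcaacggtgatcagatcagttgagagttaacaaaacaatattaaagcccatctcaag
CRD1: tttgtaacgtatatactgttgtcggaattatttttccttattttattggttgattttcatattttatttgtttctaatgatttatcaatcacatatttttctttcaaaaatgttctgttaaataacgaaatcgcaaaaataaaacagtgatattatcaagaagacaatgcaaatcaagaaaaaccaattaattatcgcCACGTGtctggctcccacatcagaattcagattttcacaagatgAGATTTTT
CAO: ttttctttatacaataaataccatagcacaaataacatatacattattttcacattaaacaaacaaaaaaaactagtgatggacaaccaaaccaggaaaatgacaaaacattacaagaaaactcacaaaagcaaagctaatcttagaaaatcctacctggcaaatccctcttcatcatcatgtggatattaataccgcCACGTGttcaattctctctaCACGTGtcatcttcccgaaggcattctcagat

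The evening element was found in *PORA* (180 to 172 bases before the start) and *PORB* (142 to 134 bases before it), that is in 2 of the 10 genes, against 2.39% of 26693 promoters of the same length. *PORB* also held CCAATC at 219 to 214 and at 22 to 17 bases before the start, and *GUN4* held it at 13 to 8 bases. This element was in 10.2% of all promoters. The G-box was found in *CRD1* (52 to 47 bases before the start) and *CAO* (52 to 47 and 32 to 27 bases), against 6.58% of all promoters. AAAAATCT was in *GUN4* (93 to 86 bases) and, on the other strand, at the last 8 bases before the start of *CRD1*, against 6.74% of all promoters. The I-box was found in *PORA* alone among the 10 genes, on the other strand at 94 to 89 bases, against 12.2% of all promoters. None of these letters occurred in the windows of *HEMA1*, *CHLH*, *CHLI1*, *CHLD* and *PORC*, and a match or its absence is a description of the window only.

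Some of these genes have near copies that could share reads. The coding sequence of *PORA* was 83.33% identical to that of *PORB*, with an identical run of up to 44 bases, and *PORC* was 73.93% and 73.53% identical to *PORA* and *PORB*. *CHLI1* was 81.78% identical to *CHLI2*, and *HEMA1* 83.11% identical to *HEMA2*. *GUN4* is a gene of 1296 bases in TAIR10.1 that shares 946 bases with AT3G59410 on the opposite strand. Overlaps of 36 to 259 bases with a neighbour were annotated for *CHLI1*, *CHLD*, *CRD1*, *PORB*, *PORC* and *CAO*. Whether strand was used in the FPKM values is not given in the sources used here, so reads of *GUN4* and its partner may not have been told apart.

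The 6 WT libraries held *LINC1* at 17.2 to 28.3 FPKM and the 6 *linc1-1* libraries held it at 2.09 to 3.76 FPKM, as the labels say. The 18 light-harvesting genes, taken as markers of green tissue, summed to between 37880 and 73014 FPKM per library. Among them *LHCB1.3* was listed at 0 in *linc1-1* mock replicate 3 and *linc1-1* *Pst hrcC*- replicate 1. This lowers their sums (41556 and 43895 FPKM), which cannot be set beside those of the other libraries. The 12 root genes summed to between 104 and 358 FPKM. The replicate 1 libraries of WT stood apart from the other 4 WT libraries. In WT *Pst hrcC*- replicate 1 the morning clock gene *CCA1* was at 18.6 FPKM, against 0.0938 to 2.07 FPKM in the other 11 libraries, and the evening gene *TOC1* was at 5.74 FPKM. *TOC1* was at 32.3 FPKM in WT mock replicate 1 and at 56.5 to 96.6 FPKM in the other 10 libraries. Results that rest on these libraries are given with and without both of them. The part of the clock state in what follows was not tested.

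Of the 10 genes, 9 averaged at least 1 FPKM across libraries and were tested, and *PORA* (mean 0.441 FPKM) was not. The order of the levels is given for *linc1-1*, where the 6 libraries lay close together. *CRD1* (289 to 392 FPKM) and *PORB* (277 to 480 FPKM) were at the top and overlapped each other. *CHLI1* (174 to 240 FPKM), *CHLH* (90.4 to 116 FPKM) and *HEMA1* (61.2 to 86.2 FPKM) followed without overlap. *GUN4* (31.5 to 47.5 FPKM) and *PORC* (23.4 to 34.5 FPKM) overlapped each other. *CHLD* (10.6 to 19.3 FPKM) was the least abundant chelatase subunit and lay above *CAO* (5.01 to 8.01 FPKM) without overlap. *PORA*, the form known for its role in seedlings kept in the dark, was at 0.0641 to 0.702 FPKM.

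In WT most of these genes spread more between replicates, with replicate 1 far above the others, except *PORB* and *CHLD* under *Pst hrcC*-. For *CHLH*, the porphyrin-binding subunit of the chelatase, WT mock libraries 1, 2 and 3 were at 317.5, 56.4 and 65.5 FPKM and WT *Pst hrcC*- libraries at 303.2, 64.3 and 52.1 FPKM. The *linc1-1* mock libraries were at 113.6, 90.7 and 113.9 FPKM and the *Pst hrcC*- libraries at 91.3, 116.0 and 90.4 FPKM. All 6 *linc1-1* libraries thus lay between the WT replicate 1 libraries above and the other 4 WT libraries below. WT replicate 1 was the highest of the 6 libraries of its treatment in 9 of 9 tested genes under mock and in 7 of 9 under *Pst hrcC*-. Relative to the mean of WT replicates 2 and 3 it was higher by a median of 4.55-fold under mock (2.301-fold to 7.23-fold) and 3.12-fold under *Pst hrcC*- (1.01-fold to 9.66-fold). Over all 16677 tested genes the median of this ratio was 1.09 under mock and 0.976 under *Pst hrcC*-, and 11.5% and 9.53% of genes lay above 2-fold. In bulk tissue, fewer cells of a type and less RNA per cell cannot be told apart.

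**Figure D1:**
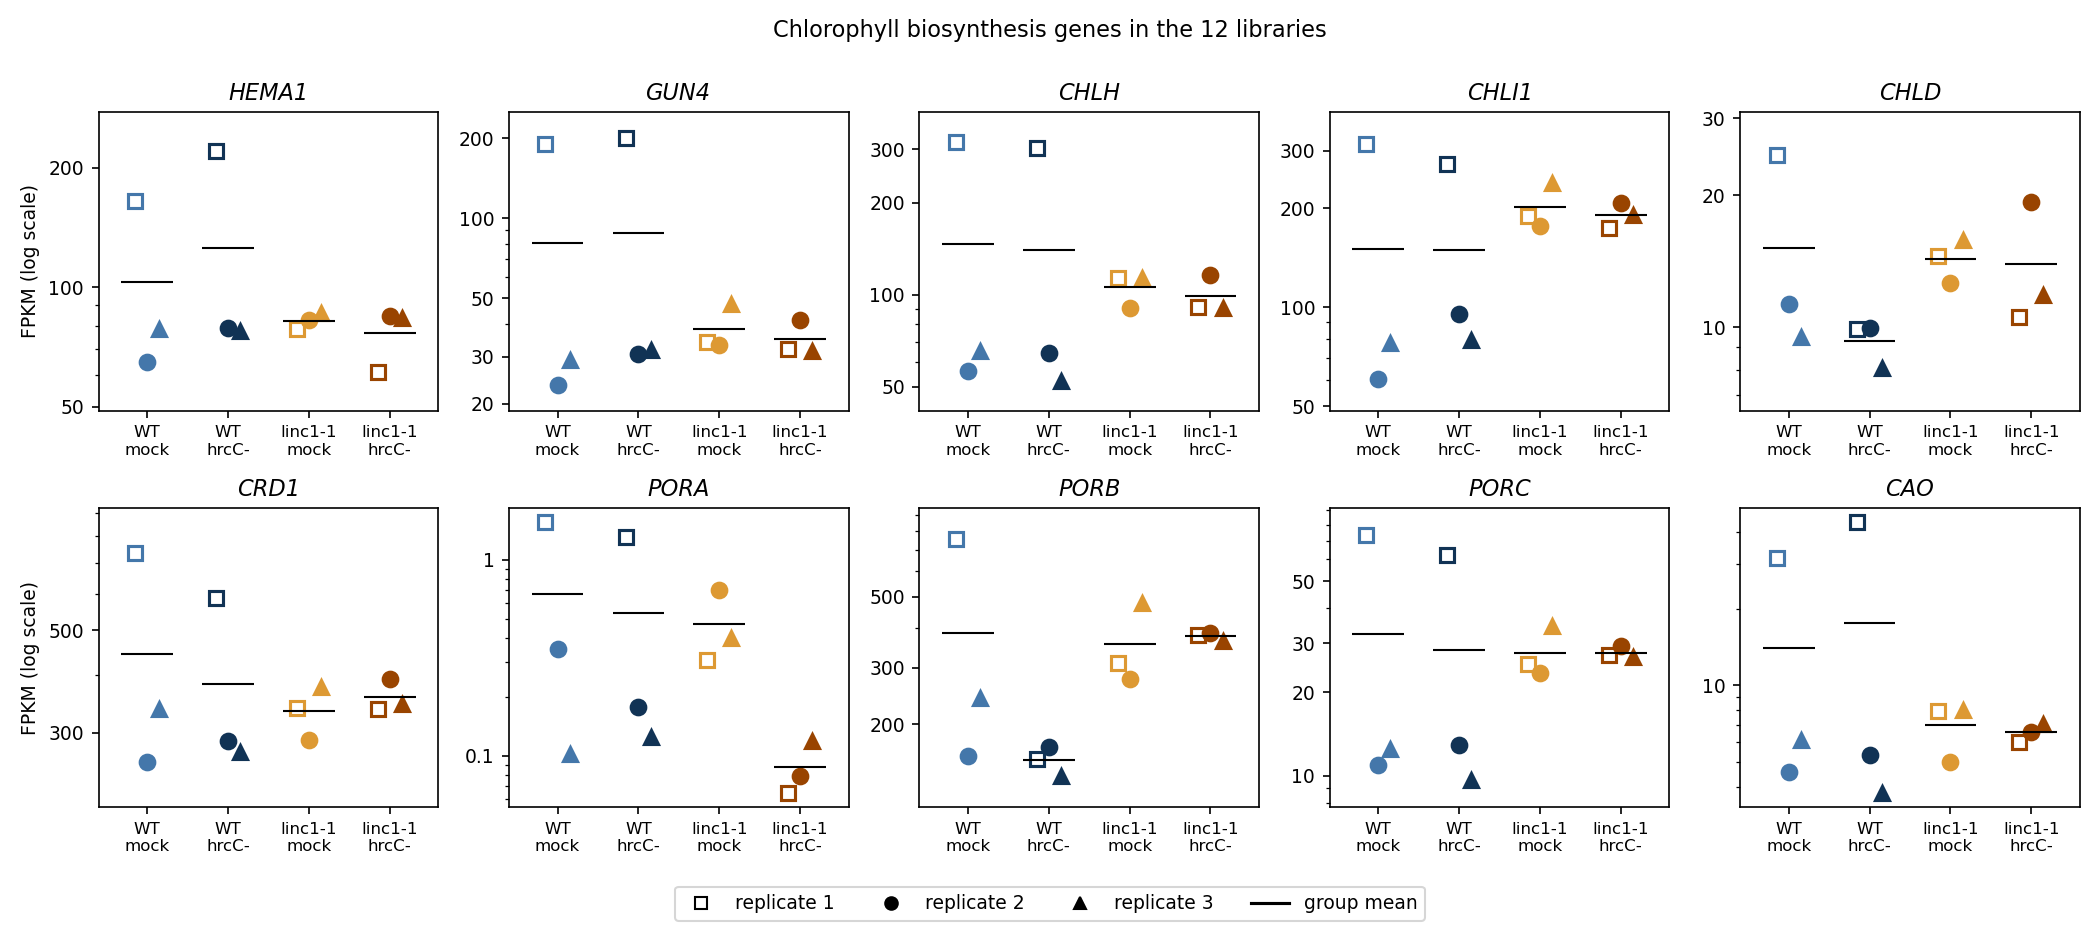
FPKM of the 10 genes in each of the 12 libraries, on log axes with their own range, by group (WT and linc1-1, mock and Pst hrcC-). Open squares are replicate 1, circles replicate 2, triangles replicate 3, and bars the group means. The open squares of WT lie above every other library in most panels, while under Pst hrcC- they fall among the other WT libraries for PORB (156.5 FPKM) and CHLD (9.92 FPKM).

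Loss of *LINC1* was first compared with WT under mock treatment. With all libraries in the fit, 0 of the 9 tested genes differed between *linc1-1* and WT (limma, adjusted p under 0.05 and a fold above 1.5), where 0.036% of all tested genes were called. At an unadjusted p under 0.05 the count was also 0, against 7.91% of all genes. Their median log2 fold change on the log2(FPKM + 1) scale was -0.003, against 0.008 over all genes, with 4 of the 9 above 0. No tested gene kept its *linc1-1* and WT libraries apart under mock, against 15.9% of all genes. The values of the lines come from separate tables, and whether these were scaled together is not given in the sources used here.

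Under mock, calls among the 9 genes came only with both WT replicate 1 libraries left out, apart from *CHLI1* in a fit that weighted the libraries (array weights). Without WT mock replicate 1 alone, the median log2 fold change of the 9 genes was 0.51 but 0 were called. In that fit 12 of all tested genes were called higher and 8 lower. The SE of a gene pools the spread of all 4 groups, to which both libraries add. Without both, which leaves replicates 2 and 3 in WT, 3 of the 9 genes were called higher in mock treated *linc1-1* and 0 lower. There 6.03% of all genes were called higher and 3.82% lower. *CHLI1*, the subunit that hydrolyses ATP, was at 189.1, 176.9 and 239.6 FPKM in *linc1-1* and at 314.5, 60.5 and 77.7 FPKM in WT. Its log2 fold change was 0.80 (SE 0.58, adjusted p = 0.79, limma) with all libraries and 1.53 (SE 0.18, adjusted p = 0.00379) without WT replicate 1. *PORC*, the form known from plants in the light, was at 25.3, 23.4 and 34.5 FPKM in *linc1-1* and at 73.2, 10.96 and 12.5 FPKM in WT. It went from 0.31 (SE 0.72, adjusted p = 0.951, limma) to 1.16 (SE 0.18, adjusted p = 0.00868). *CHLH* went from -0.003 (SE 0.70) to 0.79 (SE 0.18, adjusted p = 0.0264). Against WT replicate 1 alone the order was the opposite, since the *linc1-1* mean of every tested gene was below it, at a median of 0.455 times its level.

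The other 6 tested genes were not called between the lines under mock with or without these libraries. *HEMA1* was at 78.5, 82.8 and 86.2 FPKM in *linc1-1* and at 165, 64.8 and 78.7 FPKM in WT, and the groups overlapped also without replicate 1. *CRD1* was at 338.6, 289.2 and 376.1 FPKM in *linc1-1* and at 735.8, 258.6 and 337.8 FPKM in WT. The log2 fold changes of *HEMA1* and *CRD1* without WT replicate 1 were 0.20 (95% interval -0.17 to 0.58) and 0.17 (-0.22 to 0.56). *GUN4* (0.51), *CHLD* (0.43), *PORB* (0.81) and *CAO* (0.32) were also positive in that fit without passing the test. All 9 genes were then above 0, with a median of 0.51 against 0.04 over all genes. WT replicate 1 was the highest mock library in each of the 9, so the direction of this shift was fixed by leaving it out. The 9 tested root genes lay the other way between the lines under mock, with 8 of 9 below 0 and medians of -0.69 with all libraries and -0.65 without WT replicate 1, and 0 called in both fits (limma). The root list summed to 104 to 231 FPKM in mock treated *linc1-1* and 144 to 265 FPKM in mock treated WT, and its part in the chlorophyll genes was not tested.

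Under *Pst hrcC*- the gene with the clearest difference between the lines was *PORB*, the main protochlorophyllide reductase of these seedlings. It was at 381.0, 385.2 and 364.9 FPKM in *linc1-1* (mean 377 ± 10.7 FPKM, SD, n = 3) and at 156.5, 170.3 and 138.2 FPKM in WT (155 ± 16.1 FPKM, SD, n = 3). The groups did not overlap, and here WT replicate 1 lay with the other WT libraries. Its log2 fold change was 1.28 (SE 0.47, 95% interval 0.26 to 2.31), with an unadjusted p of 0.0188 and an adjusted p of 0.229 by limma, so it was not called. The SE of a gene comes from the spread within all 4 groups, and *PORB* spread most in WT mock, at 754.9, 159.9 and 242.7 FPKM. Without WT mock replicate 1 the same difference of 1.28 was called (adjusted p = 0.0395, limma), and without both WT replicate 1 libraries it was 1.29 (SE 0.26, adjusted p = 0.0110). Over 21 other settings the adjusted p of *PORB* lay between 0.011 and 0.516.

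Over the 9 genes, 0 were called between the lines under *Pst hrcC*- with all libraries (limma), where 0.432% of all genes were, and *PORB* alone had an unadjusted p under 0.05, against 16% of all genes. The libraries of the lines did not overlap in 2 of the 9, *PORB* and *CHLD*, against 21.1% of all genes. *CHLD*, the chelatase subunit that forms a complex with CHLI, was at 10.6, 19.3 and 11.8 FPKM in *linc1-1* and at 9.92, 9.97 and 8.06 FPKM in WT, and did not pass the test (log2 fold change 0.49, SE 0.32, adjusted p = 0.46, limma). Without WT *Pst hrcC*- replicate 1 alone, 0 of the 9 were called. Without both WT replicate 1 libraries 4 of the 9 were called higher in *linc1-1* and 0 lower, where 11.4% of all genes were called higher and 6.31% lower. These were *PORB*, *PORC* (1.24, SE 0.18, adjusted p = 0.00374, limma), *CHLI1* (1.12, SE 0.18, adjusted p = 0.00507) and *CHLH* (0.76, SE 0.18, adjusted p = 0.0188). *PORC* was at 27.1, 29.4 and 26.8 FPKM in *linc1-1* and at 62.5, 12.9 and 9.65 FPKM in WT. *CHLI1* was at 174.5, 207.2 and 190.9 FPKM and at 272.5, 95.1 and 79.6 FPKM. In both, WT replicate 1 was above the *linc1-1* range and WT replicates 2 and 3 were below it. The median of the 9 genes moved from -0.003 to 0.54, and that of all genes from 0.14 to 0.13. WT replicate 1 was the highest library of this treatment in 7 of the 9, so for these the direction of the shift was fixed by leaving it out. Under *Pst hrcC*- the 9 tested root genes were all above 0, with medians of 0.46 with all libraries and 0.64 without WT replicate 1.

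The entry enzyme, the chelatase activator, the cyclase and the oxygenase were not called under *Pst hrcC*- in either fit. *GUN4* was at 32.2, 41.2 and 31.5 FPKM in *linc1-1* and at 201.0, 30.7 and 31.8 FPKM in WT. *CAO* was at 6.01, 6.54 and 7.06 FPKM in *linc1-1* and at 43.7, 5.30 and 3.76 FPKM in WT. For both, WT replicate 1 exceeded every *linc1-1* library several-fold and the rest of WT lay near or in the *linc1-1* range. *HEMA1* was at 61.2, 84.7 and 83.8 FPKM in *linc1-1* and at 220.8, 79.2 and 77.4 FPKM in WT. *CRD1* was at 337.5, 391.7 and 346.5 FPKM in *linc1-1* and at 589.0, 288.0 and 271.8 FPKM in WT. The 95% intervals with all libraries were wide, from -2.50 to 1.03 for *GUN4* and from -2.31 to 1.203 for *CAO*. Without WT replicate 1 they narrowed to -0.29 to 0.58 and -0.03 to 0.94.

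**Figure D2:**
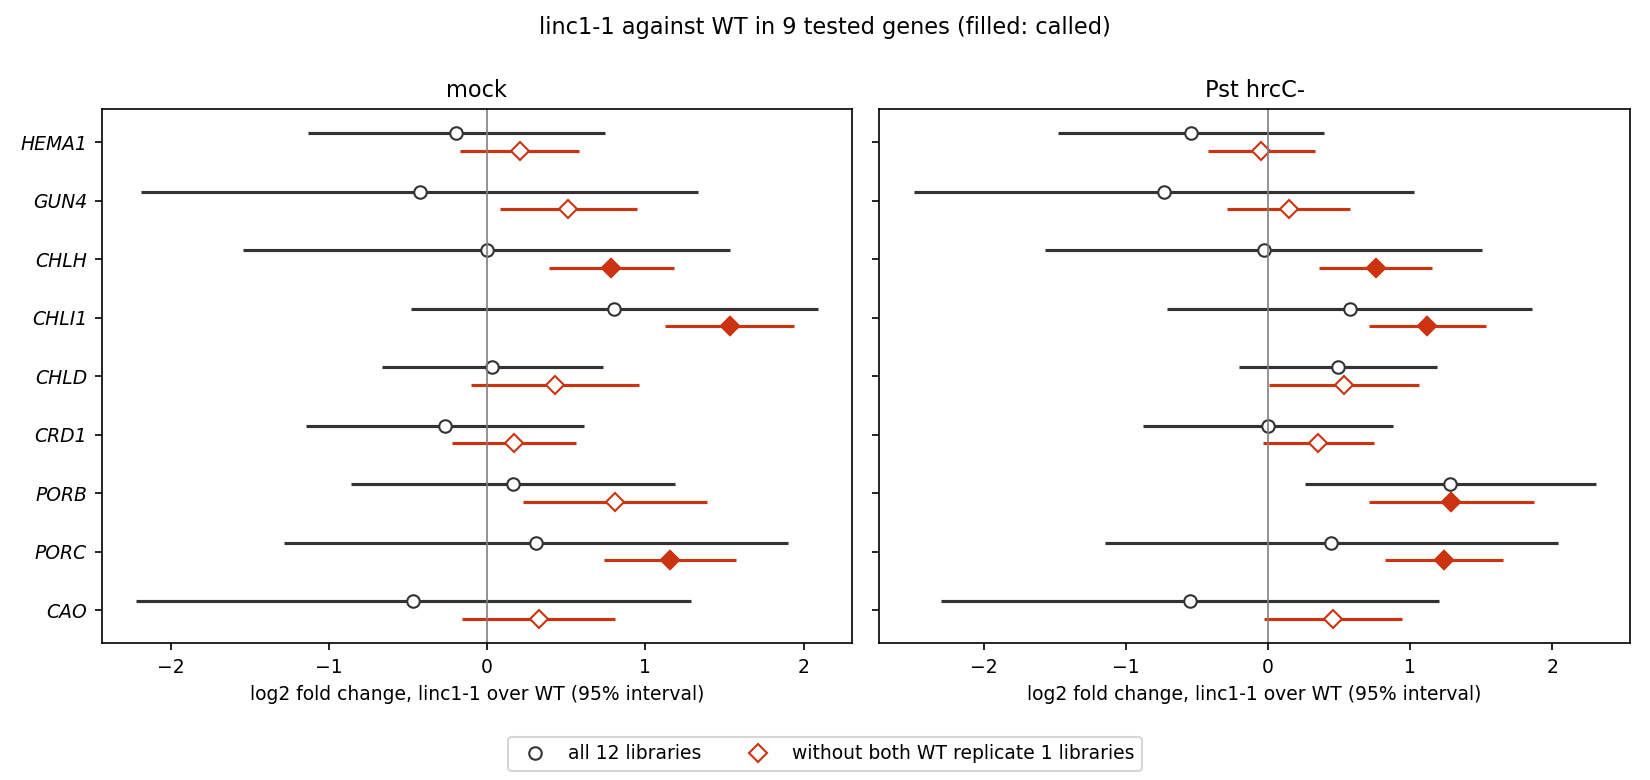
Log2 fold change of linc1-1 over WT on the log2(FPKM + 1) scale with its 95% interval for the 9 tested genes, under mock (left) and Pst hrcC- (right). Circles are the fit on all 12 libraries, diamonds the fit without both WT replicate 1 libraries, and filled symbols mark called genes. No circle is filled, and 3 diamonds under mock and 4 under Pst hrcC- are.

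*Pst hrcC*- itself left the 9 genes without a called change in either line. In WT 0 of 9 were called, where 0.18% of all genes were, and 0 had an unadjusted p under 0.05, against 5.08% of all genes (limma). In *linc1-1* 0 of 9 were called, where 0.606% were, and 0 had an unadjusted p under 0.05, against 3.98%. Without both WT replicate 1 libraries the counts were 0 in WT and 0 in *linc1-1*, where 0.168% and 1.31% of all genes were called. In *linc1-1* the log2 fold changes lay between -0.12 (*HEMA1*) and 0.12 (*PORB*), with a median of -0.07 against 0.02 over all genes. With all libraries the 95% interval of *PORC* in *linc1-1* ran from -1.57 to 1.61 and that of *CHLH* from -1.64 to 1.44. Without WT replicate 1, which left the *linc1-1* values as they were and changed the shared SE, they ran from -0.35 to 0.39 and -0.45 to 0.26. In that fit the intervals of *CHLD* (-0.55 to 0.39) and *PORB* (-0.40 to 0.64) were wider.

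In WT the largest responses were those of *PORB* (log2 fold change -0.99, SE 0.47, adjusted p = 0.993, limma) and *CHLD* (-0.54, SE 0.32, adjusted p = 0.993). They are the genes in which WT replicate 1 was high under mock but not under *Pst hrcC*-. In these libraries *PORB* was at 754.9 and 156.5 FPKM and *CHLD* at 24.8 and 9.92 FPKM, while *CHLH* was at 317.5 and 303.2 FPKM and *CAO* at 31.5 and 43.7 FPKM. Without WT replicate 1 the log2 fold changes were -0.36 for *PORB* and -0.19 for *CHLD*. A difference of the response between the lines was called in 0 of the 9 genes and in 0% of all genes, and 0 of the 9 had an unadjusted p under 0.05, against 2.28% of all genes (limma). Without both WT replicate 1 libraries the count was again 0, as it was for all genes (0%). For *PORB* the 3 treated libraries lay below the mean of mock in WT and above it in *linc1-1*. They overlapped the mock libraries in both lines, and the WT mock mean rested on the library at 754.9 FPKM. The difference of the *PORB* responses was 1.12 (SE 0.66, adjusted p = 1.00, limma), and 0.48 (SE 0.36, adjusted p = 1) without both WT replicate 1 libraries.

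Shares within a library do not move with its scaling, so they were used to look at the genes of a step against each other. *PORB* made up 91.0% to 95.1% of the summed FPKM of the *POR* genes in 11 libraries and 71.0% in WT *Pst hrcC*- replicate 1, where *PORC* took 28.4%. In the other 11 libraries *PORC* took 4.90% to 8.83%. *PORB* was thus 2.51 times *PORC* in that library and 10.3 to 19.4 times *PORC* elsewhere. The share of *PORC* was 6.85% ± 0.222 (SD, n = 3) in *linc1-1* and 14.0% ± 12.5 in WT under *Pst hrcC*-, a difference that an exact two-sided permutation test did not separate (p = 0.7, adjusted p = 0.84).

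*PORA* never exceeded 0.593% of the sum. Its share was 0.0157%, 0.0189% and 0.0303% in *Pst hrcC*- treated *linc1-1*, against 0.593%, 0.0962% and 0.0838% in *Pst hrcC*- treated WT. It was 0.0913%, 0.233% and 0.0770% in mock treated *linc1-1*. The treated *linc1-1* libraries were below all 3 libraries of each of these groups. With 3 against 3 the smallest p this test can give is 0.1, which was reached in both comparisons (exact two-sided permutation test, adjusted p = 0.6 over 12 comparisons of shares). *PORA* was at 0.0641, 0.0786 and 0.119 FPKM in these libraries and depth is unknown, so the share rests on very low values. Its near copy *PORB* was at 364.9 to 385.2 FPKM in the same libraries.

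**Figure D3:**
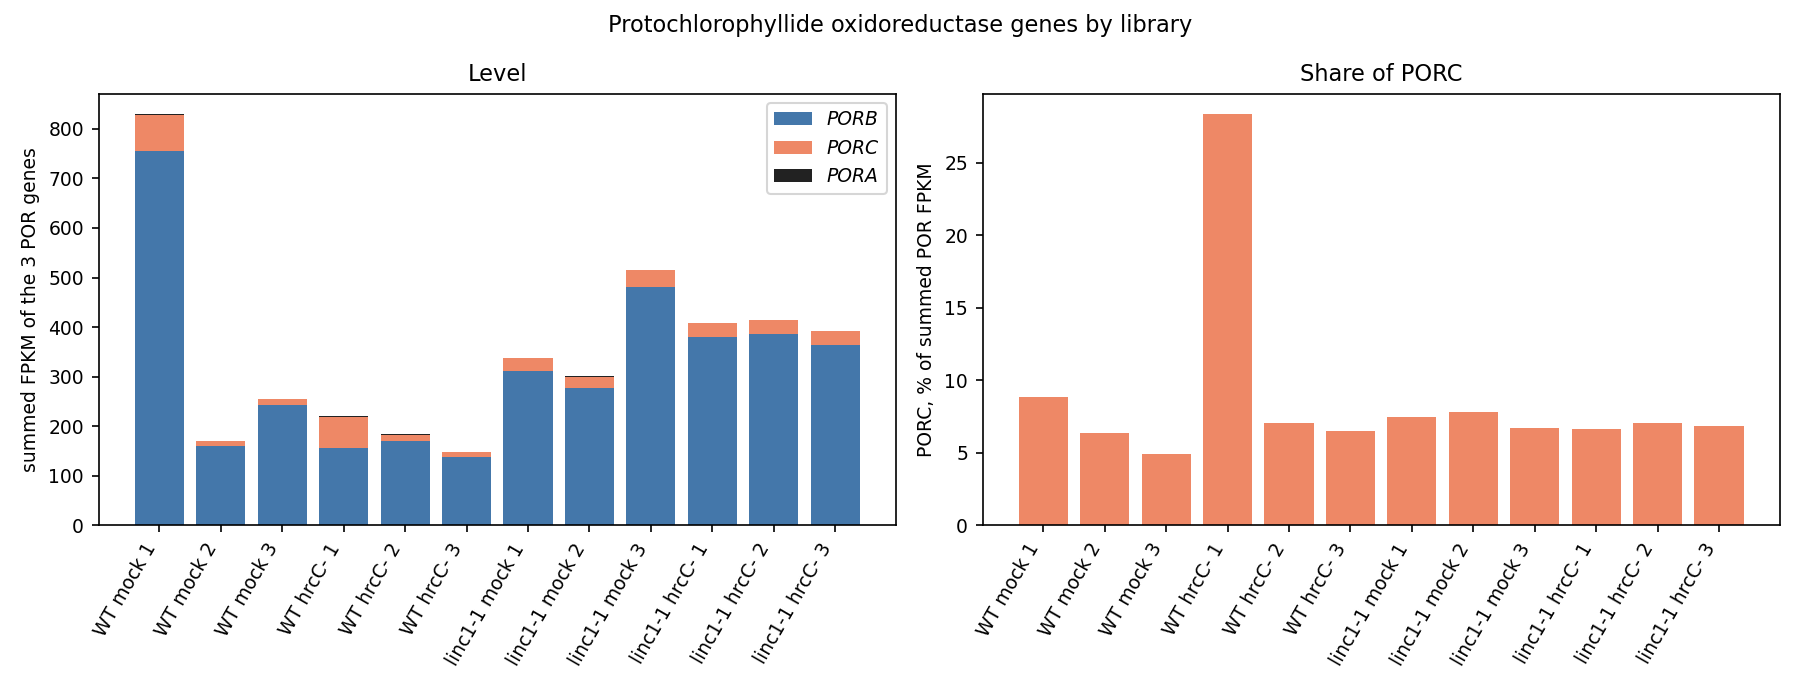
Summed FPKM of PORB, PORC and PORA stacked by library (left) and the share of PORC in this sum in percent (right), for the 12 libraries named by line, treatment and replicate. The right bars lie between 4.90% and 8.83% except in WT Pst hrcC- replicate 1, at 28.4%, where PORB (156.5 FPKM) lay between the other WT libraries of that treatment.

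The chelatase subunits kept other proportions in the lines, which was seen in the values and has no test. Of the summed FPKM of *CHLH*, *CHLI1* and *CHLD*, *CHLI1* took 59.6% to 65.1% in the 6 *linc1-1* libraries and 46.5% to 56.9% in the 6 WT libraries. *CHLH* took 30.9% to 35.8% in *linc1-1* and 37.3% to 51.8% in WT. These ranges did not overlap with WT replicate 1 included, which was at 47.9% and 46.5% for *CHLI1* and at 48.3% and 51.8% for *CHLH*. *CHLD* took 3.82% to 5.65% in *linc1-1*, inside the WT range of 1.69% to 8.80%. Since *CHLD* took little of the sum, the shares of *CHLI1* and *CHLH* mirror each other and are not separate observations. They were picked after their values were seen, and how often ratios of other genes part the lines was not counted. *GUN4* was at 0.299 to 0.417 times *CHLH* in *linc1-1* and at 0.417 to 0.663 times *CHLH* in WT, ranges that meet at their ends. *CHLI1* exceeded its near copy *CHLI2* by 4.83-fold to 9.38-fold in WT and 6.58-fold to 7.83-fold in *linc1-1*.

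Other proportions set WT replicate 1 apart and not the lines. *CAO* was at 4.28% and 7.43% of the *CRD1* level in the WT replicate 1 libraries and at 1.38% to 2.34% in the other 10. *HEMA1* was 16.7 and 20.6 times as high as *HEMA2*, the reductase gene known from non-green tissue, in these libraries, and 3.59 to 5.74 times in the others. *HEMA2* was at 9.90 and 10.7 FPKM in WT replicate 1 and at 14.4 to 21.8 FPKM elsewhere, so the ratio moved through both genes.

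The rest of the pathway was read from a list of 30 genes of tetrapyrrole synthesis, of which 28 were tested. With all libraries *UPM1*, the methyltransferase that leads to siroheme, was called higher in *Pst hrcC*- treated *linc1-1* (log2 fold change 1.57, SE 0.29, adjusted p = 0.0455, limma), and no gene of the list was called in another comparison. *UPM1* was at 41.6, 63.0 and 43.4 FPKM in *linc1-1* and at 18.7, 14.0 and 14.5 FPKM in WT after *Pst hrcC*-. Under mock it was at 39.8, 37.8 and 40.4 FPKM and at 31.5, 14.4 and 14.8 FPKM, again without overlap (1.02, SE 0.29, adjusted p = 0.34). Without both WT replicate 1 libraries 15 of the 28 genes were called higher under mock and 13 under *Pst hrcC*-, and 0 lower, in a fit that called 6.03% and 11.4% of all genes higher and 3.82% and 6.31% lower. The 28 genes had median log2 fold changes of 0.41 and 0.51 with all libraries and of 0.76 and 0.72 without these, against 0.008, 0.14, 0.04 and 0.13 over all genes. WT replicate 1 was the highest library of its treatment in 18 of the 28 under mock and in 5 under *Pst hrcC*-. For these the direction of the shift was fixed by leaving it out.

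*GSA2*, an aminotransferase of the step after HEMA1, was at 67.7, 58.5 and 79.4 FPKM in mock treated *linc1-1* and at 85.1, 25.7 and 20.8 FPKM in WT. *DVR*, which reduces the vinyl group of the chlorophyll precursor, was at 49.1, 43.9 and 76.2 FPKM and at 112.7, 11.95 and 19.99 FPKM. Both had the order of *CHLI1*, with WT replicate 1 above *linc1-1* and the other WT libraries below it. Leaving out WT replicate 1 thus fixed the direction of their shift. *GSA2* was higher by 1.52 (SE 0.17, adjusted p = 0.00338, limma) and *DVR* by 1.76 (SE 0.26, adjusted p = 0.00708) without WT replicate 1, and *DVR* was named after its values were seen. *FC1* (-0.04) and *HO1* (-0.16), of the heme and phytochrome chromophore branches, were the only negative ones of the 28 under *Pst hrcC*- with all libraries. Neither passed the test, and *FC2* and *HY2* of the same branches were above 0. Under mock the largest falls were those of *CHLP* (-0.05), of the chlorophyll branch, and *HO1* (-0.04).

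The light-harvesting genes, whose proteins bind the chlorophyll made, had 0 of 18 called in each comparison with all libraries (limma). Without both WT replicate 1 libraries 4 were called higher in *linc1-1* under mock and 10 under *Pst hrcC*-, and 0 lower, where 6.03% and 11.4% of all genes were called higher. WT replicate 1 was the highest library of its treatment in 13 of the 18 under mock and in 9 under *Pst hrcC*-. For these the direction of the shift was fixed by leaving it out. The 3 *LHCB2* genes were 17.1-fold to 19.0-fold higher in WT replicate 1 than in the mean of the other WT libraries under mock and 29.8-fold to 30.6-fold under *Pst hrcC*-, for example *LHCB2.2* at 1866 FPKM against 103.8 and 109.4 FPKM. *LHCB1.3* was listed at 0 in *linc1-1* mock replicate 3 and *Pst hrcC*- replicate 1 and at 14917 to 25755 FPKM in the other 10 libraries. Of the chlorophyll breakdown genes 9 of 12 were tested. The chlorophyllase gene *CLH1* rose with *Pst hrcC*- in both lines, from 4.13 to 4.70 FPKM to 111.5 to 173.3 FPKM in WT and from 6.63 to 10.105 FPKM to 104.3 to 364.7 FPKM in *linc1-1* (log2 fold changes 4.64 and 4.28, adjusted p = 0.00227 and 0.000565, limma), and the other 8 were not called in any comparison with all libraries.

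Among 12 regulators of the pathway 0 were called in each comparison with all libraries (limma). With both WT replicate 1 libraries left out, 2 were called higher and 1 lower in *linc1-1* under mock, and 1 higher and 4 lower under *Pst hrcC*-. That fit called 6.03% of all genes higher and 3.82% lower under mock, and 11.4% higher and 6.31% lower under *Pst hrcC*-. Under *Pst hrcC*- 6 of the 12 regulators lay above 0 and 6 below, with all libraries as well as without WT replicate 1. *GNL* was at 2.90, 2.65 and 2.21 FPKM in *Pst hrcC*- treated *linc1-1* and at 5.48, 5.37 and 5.67 FPKM in WT. Its log2 fold change was -0.86 (SE 0.23, adjusted p = 0.126, limma) with all libraries. *GLK1*, an activator of several of the chlorophyll genes, was at 11.7, 11.2 and 14.1 FPKM in mock treated *linc1-1* and at 20.3, 4.33 and 4.32 FPKM in WT. *GLK1* thus had the same order of libraries as *CHLI1* and *PORC*, and without WT replicate 1 it was called higher under mock (1.32, SE 0.15, adjusted p = 0.00338, limma) and under *Pst hrcC*- (0.85, SE 0.15, adjusted p = 0.00638). WT replicate 1 was its highest library under both treatments, so the direction of its shift was fixed by leaving that library out. *GLK2* was at 5.34, 6.69 and 5.16 FPKM in *Pst hrcC*- treated *linc1-1* and at 23.8, 7.85 and 10.2 FPKM in WT, without overlap and in the other direction (-1.01, SE 0.43, adjusted p = 0.291, limma), and it was at -0.57 (SE 0.22, adjusted p = 0.0996) without WT replicate 1. *PIF5*, a phytochrome-interacting factor of a family that represses chlorophyll genes in the dark, was at 19.6, 13.5 and 12.3 FPKM in mock treated *linc1-1* and at 38.3, 31.4 and 35.9 FPKM in WT, where WT replicate 1 lay with the others. Its log2 fold change under mock was -1.19 (SE 0.22, adjusted p = 0.173, limma), and -1.13 (SE 0.23, adjusted p = 0.0198) without WT replicate 1.

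**Figure D4:**
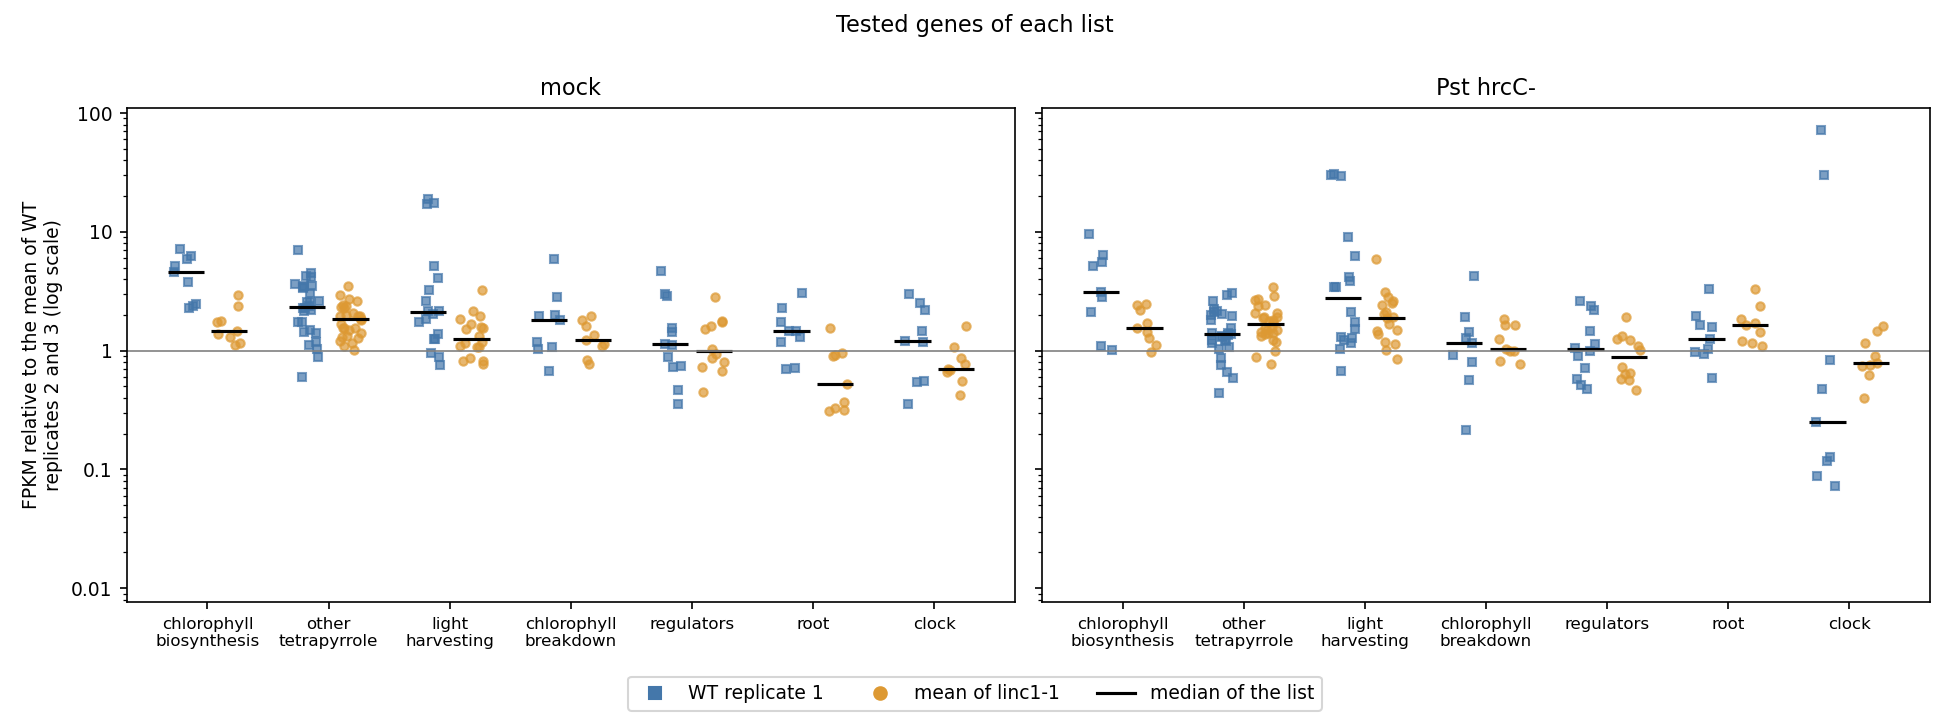
FPKM of the tested genes of each list relative to the mean of WT replicates 2 and 3, on a log scale, under mock (left) and Pst hrcC- (right). Squares are WT replicate 1, circles the mean of the 3 linc1-1 libraries, and bars the median of a list. The chlorophyll biosynthesis genes had medians of 4.55 and 3.12 for WT replicate 1 and of 1.45 and 1.54 for linc1-1, and the clock genes of WT replicate 1 under Pst hrcC- spread from 0.0722 to 71.5. The top value is LHY, at 9.98 FPKM in that library and 0.0483 to 0.398 FPKM in the others. LHY and CCA1 reached the mean of 1 FPKM for testing only through that library.

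Likeness was measured over the 12 libraries as the root mean square distance between the z-scored log2(FPKM + 1) of a gene and the mean z-score profile of the 9 tested members. Among the members *CHLH* lay closest to that profile (0.215), followed by *PORC* (0.243) and *CRD1* (0.270), and *CHLD* (0.705) and *PORB* (0.780) lay farthest. Of 16668 other genes the 5 closest were AT3G50685 (0.183), AT1G32220 (0.218), AT4G27700 (0.231), AT1G44000 (0.234) and *PSBY* (0.239), which encodes a small photosystem II protein. AT1G44000 is *SGRL*, a gene of the chlorophyll breakdown list. *PSBY* was at 1328 and 967 FPKM in the WT replicate 1 libraries, between 286.7 and 332.3 FPKM in the rest of WT and between 508.7 and 733.8 FPKM in *linc1-1*. AT3G50685 was at 206.8 and 169.3 FPKM, at 53.0 to 66.0 FPKM and at 86.1 to 121 FPKM in these same sets. These distances describe the 12 libraries and carry no test.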

How the data were processed

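The authors extracted RNA from whole seedlings, sequenced mRNA libraries in paired ends and mapped the reads to TAIR10. The deposited values are FPKM, in a table for each line, and per the labels they were made with TopHat2 2.1.1 and Cufflinks 2.2.1 after FastQC. The methods name other versions of these tools. Counts and depth are unknown, so no count test was run and a value of 0 is given as listed at 0. The methods call the 3 samples of a group independent repeats.

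Testing covered the 16677 genes that averaged at least 1 FPKM across the 12 libraries. They were fitted on log2(FPKM + 1) by limma 3.58.1 (R 4.3.3) as 4 groups in a single model, with a variance trend and no further scaling. Benjamini-Hochberg adjustment ran over all tested genes of each of 5 contrasts, and a call needed an adjusted p under 0.05 with a fold above 1.5. *POR* shares were compared by exact two-sided permutation tests. The fit was tested on simulated data.

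The genes described and the lists beside them were chosen with earlier results of these data known. The rule for naming took all 10 genes, called genes of the lists, the 2 largest rises and falls per list and contrast, *LINC1*, *CCA1*, *TOC1* and the 5 genes most alike. Of the largest rises and falls only some are named, picked after their values were seen. Genes called only without WT replicate 1, and ratios other than the *POR* shares, were picked after their values were seen. Sequences, positions and symbols are from RefSeq TAIR10.1, which held 26703 of the 27371 identifiers. Alternatives were another pseudocount, other minimum levels, size factors, quantile normalization, a replicate block, array weights, only the groups compared, and leaving out libraries.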

Additional observations from a re-analysis of the deposited data

How the results depend on the processing

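The number of the 9 chlorophyll genes called was 0 in each of the 5 comparisons and stayed 0 with another pseudocount, other minimum levels, size factors, quantile normalization and the replicate block. It also stayed 0 in the 4 comparisons of groups fitted on the groups compared alone. With array weights 1 was called between the lines under mock (*CHLI1*, 1.38, adjusted p = 0.0100, limma) and 1 under *Pst hrcC*- (*PORB*, 1.26, adjusted p = 0.0376), where 11.2% and 9.32% of all genes were called. Without both WT replicate 1 libraries 3 and 4 were called, and *CHLH* changed sign, to 0.79 under mock and 0.76 under *Pst hrcC*-. Leaving out each library in turn gave 0 throughout under mock and 0 to 1 under *Pst hrcC*-, where the 1 was *PORB* without WT mock replicate 1. Size factors moved the median of all genes in the comparison of the lines under *Pst hrcC*- from 0.14 to 0.02, and that of the 9 genes from -0.003 to -0.15. Replicate numbers were not taken as pairs: 4 of 18 correlations between libraries of the same number were above 0.1 (range -0.21 to 0.45). The highest (0.448) was that between the WT replicate 1 libraries of mock and *Pst hrcC*-. The SE of the WT response to *Pst hrcC*- thus includes a spread that these libraries shared. A block within WT alone was not fitted. With the replicate block over both lines *PORB* under *Pst hrcC*- stayed at 1.28 (adjusted p = 0.224, limma). No share of the *POR* genes could pass the test with 3 libraries a group, under any setting. The tests measure the spread between 3 libraries a group, the lines come in separate tables, and the cause of the change without WT replicate 1 was not tested.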

Other observations

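Of the root genes, markers of the tissue that holds little chlorophyll, 9 of 12 were tested. *THAS1* and *CYP708A2*, enzymes of the root triterpene thalianol, rose with *Pst hrcC*- in *linc1-1* (log2 fold changes 2.04, SE 0.39, adjusted p = 0.0456, and 1.80, SE 0.29, adjusted p = 0.0183, limma). In this comparison 0 of the 9 chlorophyll genes were called, where 0.606% of all genes were. *THAS1* was at 0.389, 1.17 and 0.395 FPKM under mock and at 4.35, 6.16 and 6.62 FPKM after *Pst hrcC*-. In WT it was at 4.82, 3.04 and 1.14 FPKM under mock and at 6.14, 2.06 and 4.16 FPKM after *Pst hrcC*-. Its difference of the responses between the lines was not called (1.65, SE 0.54, adjusted p = 0.9995, limma). All 9 tested root genes were above 0 with *Pst hrcC*- in *linc1-1*, with a median of 0.97, against 0.02 over all genes and -0.07 for the chlorophyll genes.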
